A study of Mus musculus with 6 samples.

Results

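Granule cytotoxicity is the route by which cytotoxic T cells and natural killer (NK) cells kill target cells with proteases stored in secretory granules. The genes described here are Gzmb (granzyme B), Nkg7 (a membrane protein of cytotoxic granules), Gzma and Gzmc (granzymes A and C), Prf1 (perforin), Srgn (serglycin) and Ctsc (cathepsin C), which are 7 of the 23608 rows of the deposited count table. They were taken by symbol and were selected on the measured levels of Gzmb and Nkg7, which were already known to be higher in the tamoxifen libraries of these same data. Their differences between the groups are therefore given as values with no p-value.

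The parts of the machinery have separate tasks. Perforin forms pores through which granzymes reach the cytosol of the target, where granzyme B cleaves after aspartate and activates caspases. Serglycin is a proteoglycan whose glycosaminoglycan chains hold granzymes and other basic proteases inside the granule, and cathepsin C removes the dipeptide that keeps pro-granzymes inactive. Nkg7 takes part in the exocytosis of the granules. Granzyme B has also been found in mast cells and basophils. Serglycin and cathepsin C are used by mast cells, neutrophils and their progenitors, which pack chymases, tryptases and cathepsin G in the same way, whereas perforin is largely restricted to lymphocytes.

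The data were 6 bulk RNA-seq libraries of leukaemia cells from mouse spleens. All the cells carried AE9a, a truncated AML1-ETO fusion protein with the DNA-binding domain of RUNX1, introduced together with GFP by a retrovirus, and the genotype Usp18+/f UBCER-Cre, that is 1 floxed and 1 normal copy of Usp18 and a Cre recombinase that is driven by the ubiquitin C promoter in all cell types and is activated by tamoxifen. Wild-type C57BL/6 recipients of these cells (8 to 12 weeks of age per the methods) were injected, after they had become sick, with oil (Usp18+/f, 3 libraries) or with tamoxifen (Usp18+/Δ, 3 libraries). The methods give 3 injections. Lin- c-Kit+ GFP cells were sorted 3 days after the first injection, so that remaining host cells carried neither the Cre nor the floxed allele. According to the methods each library of a group came from a mouse of its own. The comparison asks which transcripts differ when 1 copy of Usp18, a negative regulator of interferon signalling, is to be removed from an established leukaemia. None of these libraries came from cells that received tamoxifen without a floxed Usp18 allele, so that the agent and the deletion cannot be told apart.

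Libraries held between 17118964 and 20741399 counts, so that a count of 3, taken as the 95% upper limit, in 1 tail, of an observed 0, corresponded to 0.145 to 0.177 CPM, the count scaled to 1e+06 per library. Such limits and intervals hold counting error alone, because no molecular identifiers are stated and reads are then not independent molecules. The transcript of Usp18 itself, the targeted gene, was not lower in the libraries labelled tamoxifen. It had 9.12, 11.0 and 11.2 CPM in oil 1, 3 and 4 and 15.1, 28.0 and 19.4 CPM in tamoxifen 1, 2 and 4 (log2 fold change 1.0, SE 0.23, edgeR adjusted p = 0.0739). A normal copy of Usp18 is present in both groups, and these counts cover the whole gene and do not separate floxed from undeleted exons. They therefore measure neither the deletion itself nor whether the labels are right. The groups are called the libraries labelled oil and labelled tamoxifen, and each direction below rests on those labels. Tamoxifen 4 stood apart from its group: its log2 CPM correlated across genes at a mean of 0.983 with the libraries labelled oil and 0.972 with the other libraries labelled tamoxifen, where tamoxifen 1 gave 0.965 and 0.980 and tamoxifen 2 gave 0.956 and 0.979. Of 11614 genes tested with edgeR, at an adjusted p under 0.05 the share higher in the libraries labelled tamoxifen was 1.75% and the share lower was 0.267%, and in 13.3% all the libraries labelled tamoxifen lay above all those labelled oil. These calls depend on single libraries: without tamoxifen 4, 2278 genes were higher and 2024 lower, and leaving out any other library gave 8 to 16 higher and 0 lower.

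The promoters of Gzmb and Nkg7 are shown because these genes moved together, and that of Gzmc because it is the neighbour of Gzmb on chromosome 14 and was almost silent. Each window runs from 250 bases before to 50 bases after the RefSeq start of transcription in GRCm38.p6, written 5′ to 3′ on the strand of the gene. Capitals mark matches on either strand to the RUNX letters TGTGGT, the GATA-factor letters AGATAA, the core of an interferon-stimulated response element GAAANNGAA, the GAS letters of STAT factors TTCNNNGAA, the AP-1 letters TGANTCA or the NF-kB letters GGANTTTCC. The windows are Gzmb at chr14:56262285-56262584 (minus strand), Nkg7 at chr7:43436888-43437187 (plus strand) and Gzmc at chr14:56234608-56234907 (minus strand).
Gzmb: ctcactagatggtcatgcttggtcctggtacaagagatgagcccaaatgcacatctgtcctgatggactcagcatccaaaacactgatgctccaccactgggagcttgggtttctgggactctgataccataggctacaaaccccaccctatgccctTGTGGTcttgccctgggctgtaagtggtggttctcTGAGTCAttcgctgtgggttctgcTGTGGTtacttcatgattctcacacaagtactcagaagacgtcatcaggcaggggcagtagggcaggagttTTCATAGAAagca
Nkg7: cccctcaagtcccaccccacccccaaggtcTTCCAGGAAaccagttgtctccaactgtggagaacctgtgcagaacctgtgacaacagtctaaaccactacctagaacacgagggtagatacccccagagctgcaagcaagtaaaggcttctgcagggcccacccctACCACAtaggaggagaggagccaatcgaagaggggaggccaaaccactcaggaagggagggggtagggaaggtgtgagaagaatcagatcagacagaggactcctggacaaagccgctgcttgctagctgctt
Gzmc: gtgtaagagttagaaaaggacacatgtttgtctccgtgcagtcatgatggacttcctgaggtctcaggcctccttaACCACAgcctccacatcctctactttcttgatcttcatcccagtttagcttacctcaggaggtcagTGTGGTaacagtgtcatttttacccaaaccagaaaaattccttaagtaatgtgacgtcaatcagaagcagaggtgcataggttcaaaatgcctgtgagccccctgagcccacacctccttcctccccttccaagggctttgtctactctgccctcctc

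In the Gzmb window TGTGGT stood 93 and 34 bases before the start, TGAGTCA 58 bases before it and a GAS match 37 bases after it. In the Nkg7 window ACCACA, the same RUNX letters on the other strand, stood 83 bases before the start and a GAS match 220 bases before it. The GENCODE starts of Gzmb (56262260) and Nkg7 (43437073) differ from these RefSeq starts, and that of Gzmb lies downstream of its window. The offsets hold for the RefSeq starts alone. The Gzmc window held RUNX letters 174 and 108 bases before the start and no match to the other motifs. RUNX letters occurred in a window of 6 of the 7 genes, the exception being Ctsc, and in 16.8% of the 32851 promoter windows of the mouse table. GAS letters occurred in Gzmb, Nkg7 and Ctsc (8.3% of all windows), the interferon-response core in Gzma and in 1 of the 2 windows of Srgn (8.56%), and AP-1 letters in Gzmb (7.81%). GATA (11.2% of all windows) and NF-kB letters (1.25%) were found in none of the 8 windows. RUNX letters were thus present both in genes that were higher in the libraries labelled tamoxifen and in Gzma, Gzmc and Prf1, which had next to no counts. A match of letters is not a bound site.

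Gzmb (chromosome 14, 56258838 to 56262260, minus strand, GRCm38) was almost absent from the libraries labelled oil and present at a low level in those labelled tamoxifen. Its counts were 0, 1 and 1 in oil 1, 3 and 4 against 14.5, 98 and 24 in tamoxifen 1, 2 and 4. As CPM this was 0, 0.0485 and 0.0514 against 0.796 (95% exact Poisson interval 0.42 to 1.29), 5.79 (4.70 to 7.05) and 1.33 (0.850 to 1.97). The groups did not overlap, and the 3 libraries labelled tamoxifen differed from each other beyond counting error, tamoxifen 2 being 7.27 times tamoxifen 1 and 4.36 times tamoxifen 4. Summed over libraries, 136.5 counts stood against 2 counts, a ratio of 73.9 once scaled to library size, with a 95% counting interval of 20.1 to 616, and 71.8% of the 136.5 counts came from tamoxifen 2. The fitted log2 fold change was 5.99 (SE 1.16). It depends on the prior count given to a gene with so few counts in 1 group, and was 4.68 without tamoxifen 2. Even at its mean of 2.64 ± 2.74 CPM (SD, n = 3) Gzmb remained a low transcript, ranked 10910 of 11614 by mean CPM over the 6 libraries.

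Nkg7 (chromosome 7, 43437073 to 43438249, plus strand) was also lowest in the libraries labelled oil and highest in tamoxifen 2, on firmer counts. Its counts were 20, 31 and 48 in oil 1, 3 and 4 against 365, 956 and 138.5 in tamoxifen 1, 2 and 4, or 1.13, 1.502 and 2.47 CPM against 20.03, 56.4 and 7.65 CPM. The lowest library labelled tamoxifen was 3.10 times the highest labelled oil, and their counting intervals, 6.41 to 9.01 and 1.82 to 3.27 CPM, were apart. Means were 1.70 ± 0.693 CPM and 28.0 ± 25.4 CPM (SD, n = 3 each), which is a ratio of 16.5 and a fitted log2 fold change of 4.03 (SE 0.73). The spread among the libraries labelled tamoxifen, 7.38 times from lowest to highest, was wider than the 2.19 times among those labelled oil. Without tamoxifen 2 the log2 fold change was 3.02.

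Gzmb and Nkg7 were the members with an edgeR adjusted p under 0.05, 2 of the 4 that could be tested, beside the background of 1.75%. This count follows from how they were chosen. Gzmb, with 0, 1 and 1 counts in oil 1, 3 and 4, also passed the filter on low counts only through the libraries labelled tamoxifen. Nothing is therefore read from the count of members called. The count was 0 when any 1 library other than tamoxifen 4 was left out. Both were highest in tamoxifen 2, but the remaining order differed: Nkg7 was higher in tamoxifen 1 than in tamoxifen 4, and Gzmb was higher in tamoxifen 4. Across the 6 libraries their log2 CPM correlated at r = 0.95 (Spearman rho 0.943), a description over libraries that fall into the labelled groups and share their depth. In bulk RNA, more cells with a transcript and more transcript per cell cannot be told apart.

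**Figure D1:**
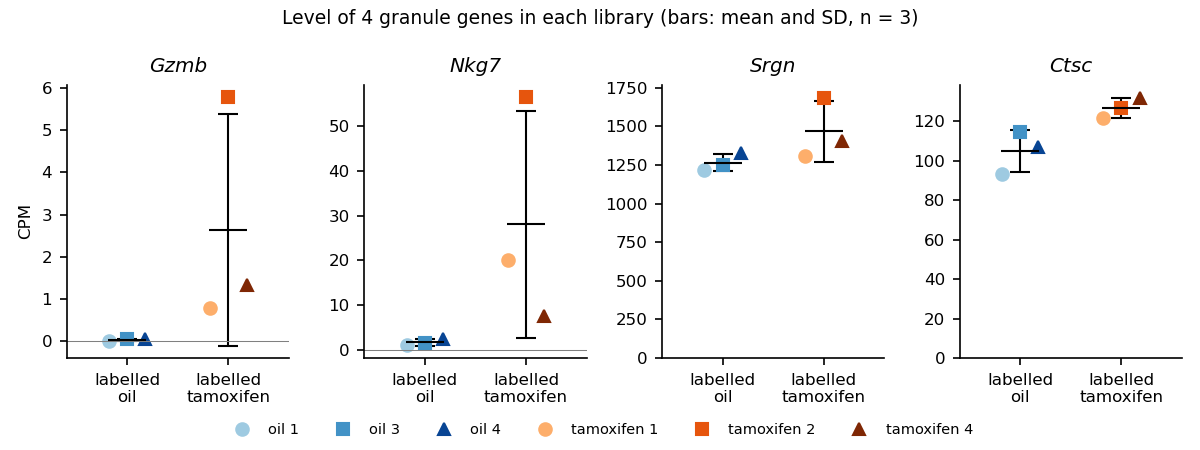
CPM of Gzmb, Nkg7, Srgn and Ctsc in each library, on a linear axis of its own for each gene, with symbols for the 6 libraries and bars for the mean and SD of 3 libraries. Gzmb and Nkg7 were near 0 in the libraries labelled oil and highest in tamoxifen 2 (5.79 and 56.4 CPM), whereas Srgn and Ctsc were abundant in all 6.

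Transcripts of the remaining killing proteins were at or near 0. Gzma (chromosome 13, 113093825 to 113100981, minus strand), the other main granzyme of lymphocytes, and Prf1 (chromosome 10, 61297833 to 61304680, plus strand) had 0 counts in all 6 libraries, which by the upper limit given above allows up to 0.145 to 0.177 CPM. Gzmc (chromosome 14, 56231441 to 56234656, minus strand) had 3 counts in tamoxifen 2, or 0.177 CPM with an interval of 0.0365 to 0.518 CPM (exact Poisson, both tails), and 0 in the other libraries. None of the 3 passed the filter on low counts. Granzyme transcripts resemble each other, and the longest exact run that Gzmb shares with another granzyme of the cluster is 49 bases, with Gzmc. Whether any reads were assigned to the wrong gene of the 2 was not tested. In tamoxifen 2 Gzmb had 98 counts where Gzmc had 3. Gzmb transcript was thus present where perforin transcript was below the limit.

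Srgn and Ctsc, which store and activate granule proteases, were abundant in both groups. Srgn (chromosome 10, 62493833 to 62527451, minus strand) had 1218, 1249 and 1330 CPM in oil 1, 3 and 4 and 1306, 1686 and 1407 CPM in tamoxifen 1, 2 and 4, and took 0.121% to 0.167% of the counts of a library. The groups overlapped, since tamoxifen 1 lay below oil 4, and the means were 1266 ± 57.6 and 1467 ± 197 CPM (SD, n = 3 each), with a fitted log2 fold change of 0.21 (SE 0.11). Srgn ranked 32 of 11614 by mean CPM. Ctsc (chromosome 7, 88278085 to 88310888, plus strand) had 93.1, 114 and 107 CPM against 122, 127 and 132 CPM. All the libraries labelled tamoxifen lay above those labelled oil, but the step was small, with means of 104.8 ± 10.8 and 127 ± 5.08 CPM (SD, n = 3 each) and a fitted log2 fold change of 0.27 (SE 0.098). Ctsc overlaps the annotated gene Gm26522, and the strand setting of the counting is not given in the sources used here, so reads of the overlap are uncertain. Gzmb, Nkg7 and Ctsc were the 3 of 4 tested members without overlap between the groups, beside 13.3% of all tested genes. Since Gzmb and Nkg7 were chosen for being higher, nothing is read from this count.

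Per kilobase of annotated exon, the level in the libraries labelled oil descended in the order Srgn (576 ± 26.2 CPM per kb), Ctsc (18.04 ± 1.85), Nkg7 (1.86 ± 0.758) and Gzmb (0.0232 ± 0.0201). In the libraries labelled tamoxifen the level of Srgn was 668 ± 89.7 CPM per kb, of Nkg7 30.7 ± 27.8, of Ctsc 21.8 ± 0.875 and of Gzmb 1.84 ± 1.91 (SD, n = 3 throughout). Nkg7 and Ctsc did not differ beyond their spread there, since tamoxifen 4 had less Nkg7 than Ctsc per kilobase and tamoxifen 2 had more. The other neighbours in both orders did not overlap between libraries.

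The other genes of the pathway were counted by list. Across 7 lists of pathway genes, 118 were in the table and 81 were tested, of which 1 was higher and 0 were lower at an edgeR adjusted p under 0.05, beside 1.75% and 0.267% of all tested genes. At an unadjusted p under 0.05 the lists held 18 genes higher and 2 lower of 81, beside 12.6% and 7.99% of all tested genes. The DESeq2 Wald test called 11 higher and 1 lower of 89, beside 5.69% and 1.67% of all genes it tested. Without tamoxifen 4, 39 of 82 were higher and 4 lower, beside 19.2% and 17.1% of all genes, so that this count rests on which libraries enter. The median log2 fold change of all tested genes was near 0 (0.000119).

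The gene called was Tnfsf10, which encodes TRAIL, a death ligand of the TNF family that kills without granules. It had 40.3, 37.0 and 40.6 CPM in oil 1, 3 and 4 and 55.7, 66.2 and 53.5 CPM in tamoxifen 1, 2 and 4, and rose from a mean of 39.3 ± 1.99 CPM to 58.5 ± 6.81 CPM (SD, n = 3 each, log2 fold change 0.57, SE 0.11, edgeR adjusted p = 0.0438). Its adjusted p was 0.109 to 0.209 in edgeR fits without any 1 of the other libraries, tamoxifen 4 excepted, and 0.34 with a replicate block. Of the other 10 genes in the list of granzymes and death ligands, 7 had 0 counts in all libraries, namely Fasl (Fas ligand), Gzmk and the chromosome 14 granzymes Gzmd, Gzme, Gzmf, Gzmg and Gzmn. Gzmm, named after its values were seen, did not exceed 0.878 CPM.

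The 12 maturation proteases and cystatins held 8 tested genes, of which 0 were called in either direction and 1 was higher at an unadjusted p under 0.05, with a median log2 fold change of 0.20. Ctsb and Ctsd, lysosomal cathepsins, were the most abundant, with 464 and 448 CPM in the libraries labelled oil and 499 and 479 CPM in those labelled tamoxifen (log2 fold changes 0.11 and 0.09, edgeR adjusted p = 0.621 and 0.613). The gene at an unadjusted p under 0.05, Cst7, named after its values were seen, encodes cystatin F, an inhibitor of cathepsin C. It had 49.9, 59.0 and 58.1 CPM in the libraries labelled oil and 81.1, 109 and 72.5 CPM in those labelled tamoxifen, without overlap (log2 fold change 0.65, edgeR adjusted p = 0.0813). Ctsw, a cathepsin of T and NK cells also named after its values were seen, stayed at or under 0.384 CPM and was not tested.

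The granule release machinery held 28 tested genes of 30, with 0 called, 5 higher and 1 lower at an unadjusted p under 0.05, and a median log2 fold change of 0.17. Ap3b1, a subunit of the adaptor that sorts proteins to lysosome-related organelles, had 771 ± 48.6 and 745 ± 80.2 CPM (log2 fold change -0.05, edgeR adjusted p = 0.803). Coro1a, an actin regulator of leukocytes, had 365 ± 34.3 and 571 ± 197 CPM (log2 fold change 0.65, edgeR adjusted p = 0.188), with tamoxifen 4 at 378 CPM inside the oil range. The fusion factors of cytotoxic granules were present throughout: Unc13d had 147 to 160 CPM in the libraries labelled oil and 119 to 154 CPM in those labelled tamoxifen, and Rab27a had 24.4 to 32.6 and 29.8 to 36.9 CPM. Unc13d and Rab27a were named after their values were seen.

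Enzymes that build the glycosaminoglycan chains of serglycin held 22 tested genes of 28, with 0 called, 3 higher and 1 lower at an unadjusted p under 0.05, and a median log2 fold change of 0.14. Ndst2, the heparin N-sulfotransferase of mast cells, had 896 ± 16.2 and 1060 ± 241 CPM (log2 fold change 0.24, edgeR adjusted p = 0.396). Fam20b, a xylose kinase of the linker region, had 358 ± 19.8 and 351 ± 24.1 CPM (log2 fold change -0.03, edgeR adjusted p = 0.855). Of 10 serpins of the granzyme inhibitor families, 5 were tested and 0 were called, with 1 higher at an unadjusted p under 0.05 and a median log2 fold change of 0.05. Serpinb1a, an inhibitor of neutrophil proteases, had 46.1 ± 11.5 and 116 ± 78.2 CPM (log2 fold change 1.33, edgeR adjusted p = 0.2), and Serpinb6b, which belongs to a granzyme-inhibiting family, had 65.8 and 61.3 CPM (log2 fold change -0.10, edgeR adjusted p = 0.529). Serpinb9, the inhibitor of granzyme B, named after its values were seen, had 47.4 ± 0.842 and 45.4 ± 3.11 CPM (log2 fold change -0.06, edgeR adjusted p = 0.716). These serpins have close paralogs, among which reads may be shared.

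Transcription factors and cytokine receptors of cytotoxic cells held 10 tested genes of 19. Their log2 fold changes were positive in 10 of 10, with a median of 0.46, beside 5809 of all 11614 tested genes. At an unadjusted p under 0.05, 3 were higher, beside 12.6% of all tested genes, and 0 were called. Genes of the list that were too low to test are left out of these counts. Stat5b and Stat5a, which carry the signals of interleukin 2, 3 and 15, had 282 and 277 CPM in the libraries labelled oil and 305 and 309 CPM in those labelled tamoxifen (log2 fold changes 0.12 and 0.15, edgeR adjusted p = 0.550 and 0.360). Tbx21 and Eomes, the T-box factors that drive Gzmb and Prf1 in lymphocytes, had 0 counts in all 6 libraries, and Runx3, also a factor of cytotoxic cells, had 70.0 ± 3.16 and 83.7 ± 11.3 CPM. Il2rb, the receptor chain through which interleukins 2 and 15 act on cytotoxic cells, had 1 count in tamoxifen 4 and 0 elsewhere. Tbx21, Eomes, Runx3 and Il2rb were named after their values were seen.

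**Figure D2:**
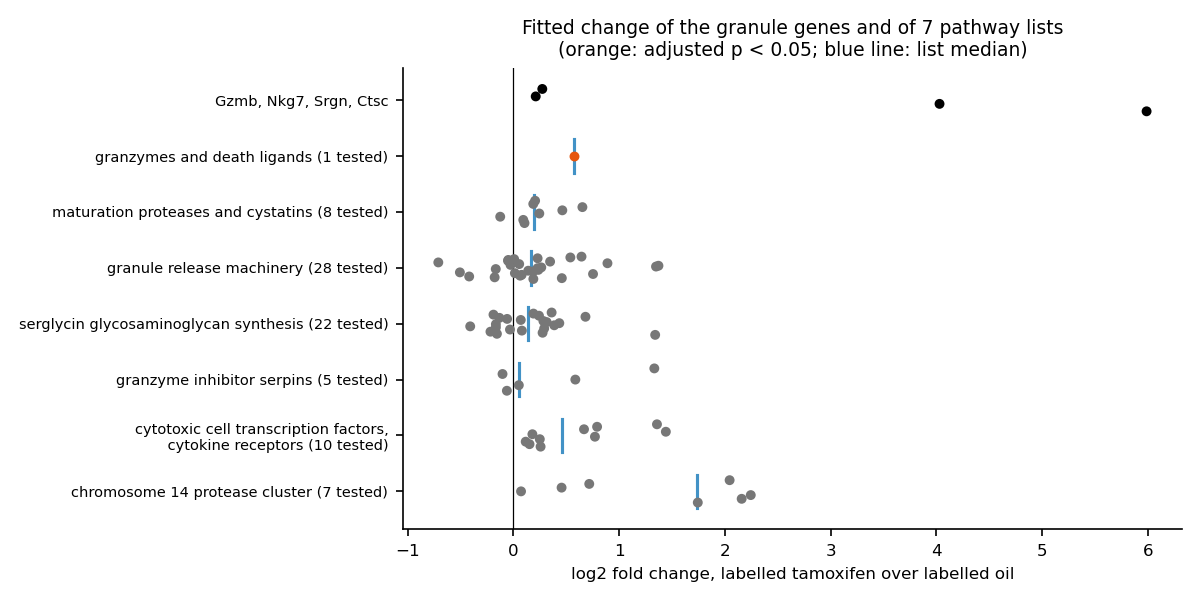
Fitted log2 fold change, libraries labelled tamoxifen over labelled oil, for the 4 tested granule genes (top) and for each tested gene of 7 pathway lists. Each point is 1 gene, orange marks an edgeR adjusted p under 0.05 in the lists, and blue lines mark list medians. Gzmb (5.99) and Nkg7 (4.03), which were chosen for being higher, lay beyond all the genes of these 7 lists. Tpsb2 (4.16), of the mast cell and basophil markers, is not drawn. The list of the chromosome 14 proteases had the largest median (1.74).

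Gzmb lies at 1 end of a cluster of serine protease genes on chromosome 14, which runs through granzymes and cathepsin G (Ctsg) to the mast cell chymases (Mcpt genes and Cma1). Gzmc begins 27.6 kb from the start of Gzmb, Gzme 141.6 kb, Ctsg 159.7 kb, Mcpt4 199.9 kb and Cma1 317.6 kb. Between Gzmb and Ctsg the 6 granzyme genes were silent but for the 3 counts of Gzmc. Beyond them all 8 genes had counts, and 7 were tested. The log2 fold change was above 0 in 7 of the 7 (median 1.74), beside 5809 of all 11614 tested genes. At an unadjusted p under 0.05, 4 were higher, beside 12.6%, and 0 were called. Mcpt9, not tested, had means of 0.408 CPM (oil) and 0.236 CPM (tamoxifen). Cma2 (21, 6 and 6 counts in oil 1, 3 and 4) and Mcpt8 (16, 9.5 and 10) passed the filter on low counts only through the libraries labelled tamoxifen. Nothing is therefore read from the 7 of 7. Mcpt9, Cma2 and Mcpt8 were named after their values were seen.

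The mast cell end of the cluster held its most abundant genes. Cma1, a chymase, had 246, 241 and 318 CPM in oil 1, 3 and 4 and 876, 2170 and 557 CPM in tamoxifen 1, 2 and 4 (log2 fold change 2.16, SE 0.45, edgeR adjusted p = 0.0551), without overlap between the groups. Its call depended on the setting. The adjusted p was 0.00939 by DESeq2, and in edgeR 0.0165 without the low-count filter and 0.00023 without tamoxifen 4. Without any 1 of the other libraries the edgeR value was 0.0633 to 0.262. Mcpt1 had 174 ± 15.3 and 183 ± 53 CPM (log2 fold change 0.07, edgeR adjusted p = 0.832), with tamoxifen 1 and 4 below the oil range and tamoxifen 2 above it at 244 CPM. Ctsg, named after its values were seen, had 0.929, 0.945 and 1.47 CPM against 2.39, 5.64 and 3.07 CPM (edgeR adjusted p = 0.0746). Like Gzmb, the 7 tested proteases were highest in tamoxifen 2. Mcpt genes are close paralogs of each other, so the division of reads among them is uncertain, whereas the longest run that any of them shares with Gzmb is 15 bases, and 16 for Cma1.

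**Figure D3:**
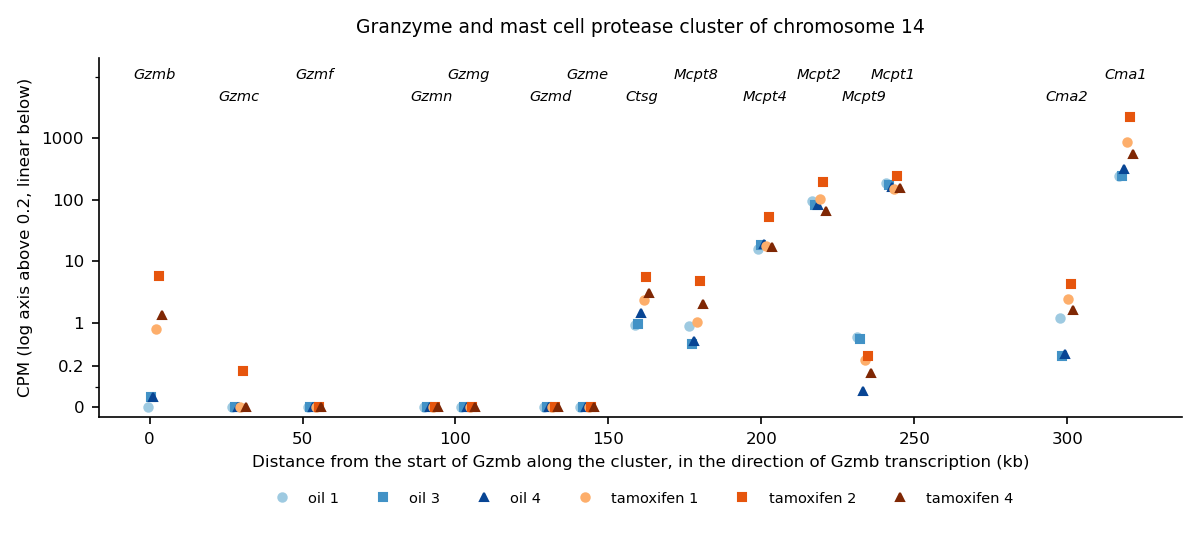
CPM of the 15 genes of the chromosome 14 cluster in each library, on an axis that is logarithmic above 0.2 CPM and linear below, against distance from the start of Gzmb in kb (points of 1 gene are spread sideways). The granzymes from Gzmc to Gzme lay at or near 0, and Gzmb at 1 end and the proteases from Ctsg to Cma1 at the other were highest in tamoxifen 2, with the exception of Mcpt9.

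Markers of cells that can carry these genes were examined in the same libraries. Of 24 T and NK cell markers 21 were in the table, 13 of which had 0 counts in all 6 libraries, among them Cd3e, Ncr1 and Klrd1, and 15 did not exceed 3 counts in any library. The summed level of the list was 68.0 to 73.0 CPM in the libraries labelled oil and 68.9 to 95.9 CPM in those labelled tamoxifen. Cd247, a signalling chain with other haematopoietic sources, was its most abundant gene by mean CPM. Cd247 had 46.8 and 40.0 CPM (log2 fold change -0.23, edgeR adjusted p = 0.374). Of 4 tested markers 0 were called and 2 were higher at an unadjusted p under 0.05, beside 12.6% of all tested genes. The markers Cd3d, Cd3e, Cd3g and Ncr1 were at 0 in tamoxifen 2, where Gzmb and Nkg7 were highest. In that library Nkg7 had 956 counts and Cd247, of the same list, had 572.5. Among markers of the list that other cells share, the counts of Thy1 were 12, 7 and 4.5 in the libraries labelled oil against 50.5, 74.5 and 20 in those labelled tamoxifen. Thy1, 1 of the 2 higher at an unadjusted p under 0.05, passed the filter on low counts only through the libraries labelled tamoxifen. Ccl5 had 3, 0 and 0 against 7.5, 16.5 and 3 counts, and Klrk1, an NK cell receptor, had 0, 0 and 0 against 1, 5 and 0 counts. These 3 were named after their values were seen, and the part of T and NK cells in the higher Gzmb and Nkg7 was not tested beyond these levels.

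Some mast cell and basophil markers were abundant in all 6 libraries, among them Hdc, Ms4a2 and Kit, while others such as Tpsb2 were low, and 2 of the 16 tested passed the test. Their summed level was 3491 to 3683 CPM in the libraries labelled oil and 4193 to 8433 CPM in those labelled tamoxifen. Of 17 markers 16 were tested, 2 were called higher and 0 lower, beside 1.75% and 0.267% of all tested genes, and 9 were higher at an unadjusted p under 0.05, beside 12.6%. The median log2 fold change was 0.90. In 8 of the 16 the groups did not overlap, with the libraries labelled tamoxifen above, beside 13.3% of all tested genes. Fcer1a, the IgE-binding chain of the high-affinity receptor, had 68.2, 98.0 and 85.7 CPM against 355, 552 and 188 CPM (log2 fold change 2.12, SE 0.35, edgeR adjusted p = 0.0381). Tpsb2, a tryptase, rose from 0.113, 0.315 and 0.283 CPM to 2.00, 8.92 and 2.43 CPM (log2 fold change 4.16, SE 0.75, edgeR adjusted p = 0.0402), and is a close paralog of Tpsab1, with which its reads may be shared. Tpsb2 had 2, 6.5 and 5.5 counts in oil 1, 3 and 4. It passed the filter on low counts only through the libraries labelled tamoxifen, so nothing is read from its call. The same held for Mrgprb2, with 5, 2 and 14 counts in oil 1, 3 and 4, and for Mcpt8, with 16, 9.5 and 10. These genes enter the numbers of markers and the median above, so nothing is read from those either. The calls of Fcer1a and Tpsb2 were lost when any 1 library other than tamoxifen 4 was left out, with edgeR adjusted p-values of 0.0692 to 0.209.

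Other defining genes of these cells did not pass the test. Hdc, histidine decarboxylase, had 1138 ± 76.7 and 1698 ± 450 CPM (log2 fold change 0.58, edgeR adjusted p = 0.157), and Ms4a2, the beta chain of the IgE receptor, had 896 ± 29.7 and 872 ± 53.0 CPM (log2 fold change -0.04, edgeR adjusted p = 0.807). Mrgprb1 was at 0 in all libraries. Without overlap and not called, Cpa3 had 132 and 571 CPM (log2 fold change 2.11, edgeR adjusted p = 0.064). In the same way Tpsab1 had 1.03 and 6.71 CPM (2.70, edgeR adjusted p = 0.0523), and Mrgprb2 0.366 and 4.15 CPM (3.48, edgeR adjusted p = 0.0897). These 3 were named after their values were seen. Of the 16 tested markers, 14 had a positive log2 fold change and 2 a negative one. The cells were sorted as c-Kit+, and Kit, which mast cells also carry, had 447 ± 6.30 and 627 ± 169 CPM. The part of mast cell or basophil transcripts in the higher Gzmb and Nkg7 was not tested.

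Macrophage and dendritic cell markers were low. The summed level of the 12 genes was 4.65 to 8.70 CPM in the libraries labelled oil and 7.13 to 14.9 CPM in those labelled tamoxifen. Of 7 tested, 0 were called and 2 were higher at an unadjusted p under 0.05, beside 12.6% of all tested genes. The median log2 fold change was 0.82. Vcam1, an adhesion molecule, had 0.825 ± 0.295 and 3.05 ± 1.22 CPM (log2 fold change 1.86, edgeR adjusted p = 0.0696), and Cd68, a lysosomal protein, had 1.27 ± 0.194 and 2.47 ± 0.768 CPM (log2 fold change 0.97, edgeR adjusted p = 0.189). Flt3 and Siglech, markers of dendritic cells, had 0 counts in all libraries. The part of these cells was not tested.

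**Figure D4:**
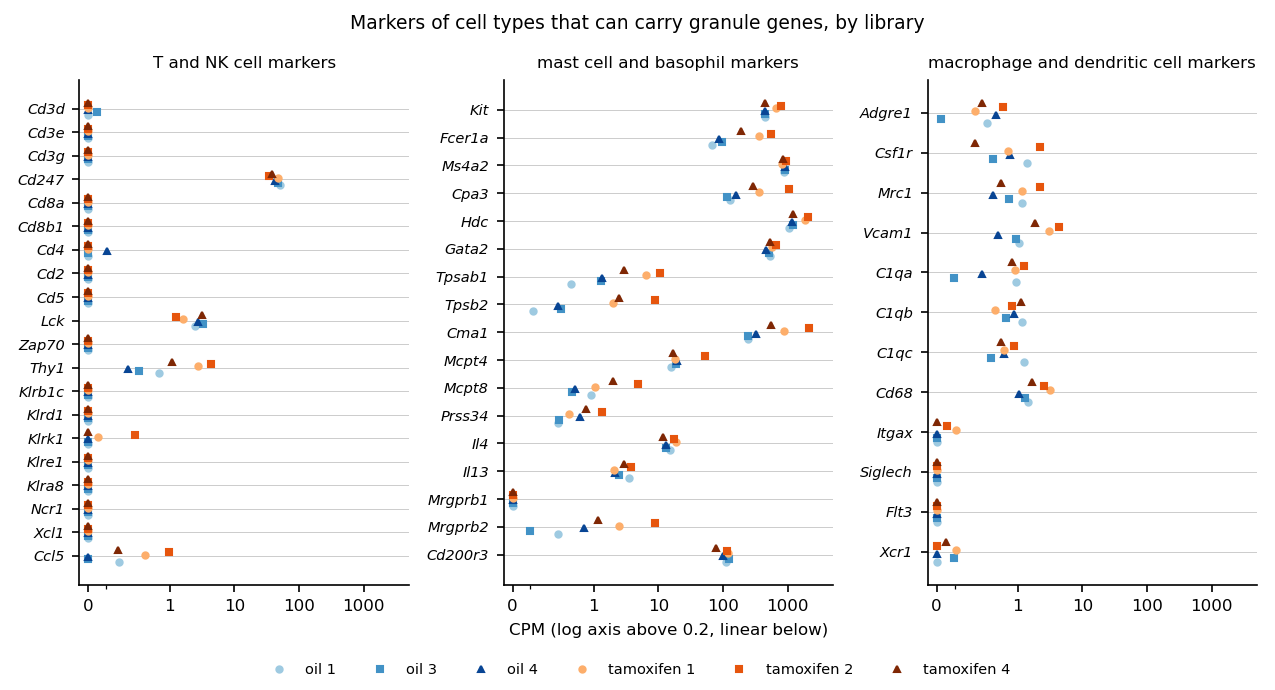
CPM of the markers in each library for T and NK cells (left), mast cells and basophils (middle) and macrophages and dendritic cells (right), on an axis that is logarithmic above 0.2 CPM and linear below. Most T and NK cell markers lay at 0 (of the 21, 20 are drawn), and Fcer1a (68.2 to 552 CPM) and Tpsb2 (0.113 to 8.92 CPM) were higher in the libraries labelled tamoxifen.

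Genes with the pattern closest to Gzmb were ranked by Pearson's r of log2 CPM over the 6 libraries. The closest 5 of 11613 were Tpsb2 (r = 0.996), Hipk3, a protein kinase (0.993), Tpsg1, a tryptase of mast cells (0.993), Flvcr1, a haem and choline transporter (0.991), and Usp18 (0.991). They covered a wide range of levels. Hipk3 had 161, 168 and 160 CPM in oil 1, 3 and 4 and 205, 245 and 210 CPM in tamoxifen 1, 2 and 4, and Tpsg1 had 2.67, 3.61 and 3.19 against 8.26, 23.7 and 8.78 CPM. In all 5 tamoxifen 2 was highest. A looser limit, r of 0.9 with Gzmb, was reached by 479 genes (4.12%). By Spearman's rho, where 38 genes tied at 1, 2 of the 5 stayed among the closest, Tpsb2 and Usp18.

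The closest to Nkg7 were Crlf2, the receptor of thymic stromal lymphopoietin (r = 0.999), Spns3, a transporter (0.998), Nmnat2, an enzyme of NAD synthesis (0.997), the kinase gene Src (0.997) and the pseudogene Rps15a-ps6 (0.996), whose reads may come from its parent gene. Crlf2 had 9.12, 10.4 and 13.5 CPM in oil 1, 3 and 4 and 32.4, 54.5 and 21.5 CPM in tamoxifen 1, 2 and 4. Spns3 had 4.45, 5.65 and 6.82 against 24.3, 38.1 and 14.1 CPM, and Src had 0.929, 1.16 and 1.49 against 8.78, 19.1 and 3.31 CPM. All 5 had a rho of 1 with Nkg7, as did 155 genes in all, and 946 genes (8.15%) reached r of 0.9. Neither Gzmb nor Nkg7 was among the closest 5 of the other. These likenesses describe 6 libraries in labelled groups of 3, in which any gene that is highest in tamoxifen 2 and low in the libraries labelled oil comes out alike.

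**Figure D5:**
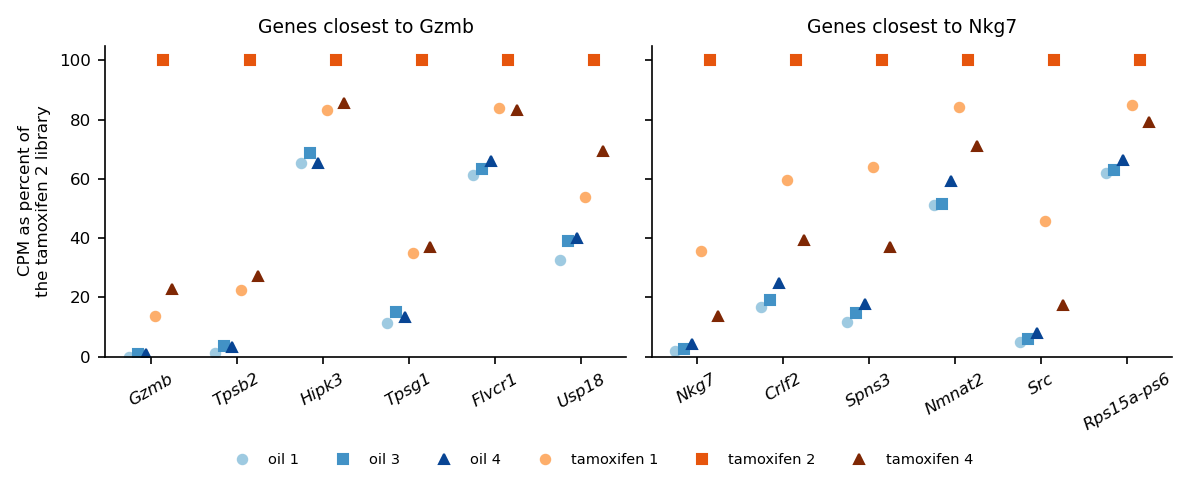
CPM of Gzmb (left) and Nkg7 (right) and of the 5 genes closest to each, as a percentage of the value in tamoxifen 2, with symbols for the 6 libraries. In the genes closest to Nkg7 tamoxifen 1 lay above tamoxifen 4, whereas in 4 of the 5 closest to Gzmb, all but Flvcr1, tamoxifen 4 lay above tamoxifen 1.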

How the data were processed

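RNA-seq of 6 libraries, 3 labelled oil and 3 labelled tamoxifen, was used. The values are estimated counts for each gene symbol as deposited by the authors, not scaled between libraries, in steps of 0.5. Per library, 25.9% to 27.3% of them were fractional. The submitters' processing notes name STAR, DESeq2 and mm10. The counter, strand setting and annotation are not given in the sources used here. The labels name a DNA Flex kit after Trizol extraction, and the study names a sequencing provider.

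The numbers are 1, 3, 4 (oil) and 1, 2, 4 (tamoxifen) in the table and 1, 2, 4 and 1, 3, 4 in the sample titles. Table numbers are used, and oil 3 and tamoxifen 2 were placed by group only. P-values weigh the difference between the groups against the spread among the libraries within each group.

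Counts were rounded and tested in R 4.3.3 with edgeR 4.0.16 (filterByExpr by group, TMM, quasi-likelihood test, no block), adjusted by Benjamini-Hochberg over 11614 genes, and tested on simulated data. CPM is the unrounded count per 1e+06 of the TMM-scaled total of tested genes, and the prior count of log2 CPM was 2. Poisson intervals are 95%. Positions come from GENCODE M21 (GRCm38), promoters from RefSeq (all 7 members matched). The members, lists, motifs and tests were chosen with earlier results of these data known. Named are all members, Usp18, called list genes (at most 4) and the 2 most abundant tested genes of each list, up to 3 marker genes at 0, and the 5 genes closest to Gzmb and to Nkg7. Other genes are said to have been named after their values were seen. Some genes of the lists are counted in them but not reported here. Alternatives were RLE normalization, the DESeq2 1.42.0 Wald test, no low-count filter, unscaled totals, a replicate block, Spearman's rho and each library left out.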

Additional observations from a re-analysis of the deposited data

How the results depend on the processing

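The fitted log2 fold changes of the members kept their sign under the alternatives run. Leaving out each library gave 4.68 to 6.43 for Gzmb, 3.02 to 4.48 for Nkg7, 0.102 to 0.289 for Srgn and 0.195 to 0.339 for Ctsc. Members called were 2 with RLE, DESeq2, no filter, the replicate block and without tamoxifen 4, and 0 when any other library was left out. This count follows from how the members were chosen, so nothing is read from it. Of all genes, 203 were higher and 31 lower as reported, 742 and 218 by DESeq2 and 372 and 61 without a low-count filter. Leaving out each library gave 8 to 2278 higher and 0 to 2024 lower, both upper values without tamoxifen 4. Pathway genes, 1 higher and 0 lower as reported, were 11 and 1 by DESeq2, 4 and 1 without a filter, and 0 to 39 and 0 to 4 without each library. Marker genes higher, 2 as reported, were 11 by DESeq2, 8 without a filter, 5 with the replicate block and 0 to 15 without each library, and 0 to 1 were lower. Of the 5 genes closest to Gzmb, 2 remained by Spearman's rho, and 5 of 5 for Nkg7. The cause was not tested.

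Only numbers 1 and 4 occur in both groups, and the deviations from group means correlated at -0.127 (number 1) and 0.0616 (number 4), so that the number alone is shared. The replicate block leaves 1 residual degree of freedom. Under it the log2 fold change was 5.01 for Gzmb, 2.80 for Nkg7, 0.0912 for Srgn and 0.346 for Ctsc, and 215 genes were higher and 26 lower. The 1 pathway gene higher was then Cma1 (edgeR adjusted p = 0.000959), whereas Tnfsf10 was not called (0.34). Genes near 0 changed sign. With the replicate block Ap3b1 was 0.087, Fam20b 0.064 and Mcpt1 -0.19. Over the fits without each library, Ctsd ran from -0.0035 to 0.16, Ap3b1 from -0.101 to 0.039, Fam20b from -0.078 to 0.022 and Mcpt1 from -0.19 to 0.204, with the changed sign without tamoxifen 2 and, for Fam20b, also without oil 3 (0.0093). Depth limits Gzma, Gzmc and Prf1, for which no fold is given.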
